A study of Mus musculus with 6 samples.

Results

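The genes described here are Nr3c1, which encodes the glucocorticoid receptor, and 8 genes that glucocorticoids are known to switch on or that act on the hormone and its receptor: Klf9, Klf15, Fkbp5, Tsc22d3, Zbtb16, Sgk1, Dusp1 and Hsd11b1. They were read from every probe set of the Mouse Genome 430 2.0 array that is annotated to exactly 1 of these symbols. This gave 27 probe sets of the 45037 on the array other than controls, and 9 of the 18193 genes measured. The set was chosen because Klf15 was lower in the cultures with EGF, and that difference is therefore given as a description, with no test.

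The cells were epithelial cells of the hair follicle bulge, microdissected from the vibrissae of adult mice. They were divided between NFFSE medium and NFFS medium, held in atelocollagen gel for 6 days, and profiled on 3 arrays for each medium in an experiment that was performed 3 times. NFFSE medium held Noggin, FGF7, FGF10, the hedgehog agonist SAG and EGF, the epidermal growth factor that activates the EGF receptor and ERK signaling. NFFS medium held the same factors without EGF. No gene deletion is named for these cultures, and no steroid is named as a treatment in either medium. Both media also contained the N2 and B-27 supplements, and B-27 is generally known to contain corticosterone, the main glucocorticoid of the mouse. The hormone level in the cultures was not measured. Several mouse lines are listed for the study, and which of them gave these cultures is not stated. Because the whole bulge region was taken and all cells of a gel were pooled into RNA, fewer cells of a type and less RNA per cell cannot be told apart in these values.

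The glucocorticoid receptor is a nuclear receptor that waits in the cytoplasm in a complex with HSP90 and its cochaperones. Once a glucocorticoid binds, the receptor moves into the nucleus, binds DNA at palindromic response elements and recruits coactivators, which induces genes such as Fkbp5, Tsc22d3 and Klf9. It also represses inflammatory genes driven by NF-kappaB and AP-1, largely without binding such an element itself. In skin the receptor restrains keratinocyte proliferation and inflammation, and stress levels of corticosterone are known to keep mouse hair follicle stem cells at rest.

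The values are array signals on a linear scale, for which the submitters' processing notes name MAS5. Differences are log2 of the NFFSE signal minus log2 of the NFFS signal, tested with limma over all genes, and a gene was called higher or lower at a Benjamini-Hochberg adjusted p under 0.05. Signals of 22.7 or less were treated as background, since that is the highest signal of the control probe sets for a bacterial transcript. Median signals ranged between 56.5 and 65 on the NFFSE arrays and between 66.5 and 70.6 on the NFFS arrays. The cells carried high signals of keratinocyte markers in both media (Krt5 was at 25999 or more on each array), but these markers were not all alike. Of 8 such markers, 3 were called higher in NFFSE (Itga6, Krt14 and Epcam), 1 lower and 4 not. Krt15 was the marker called lower, at 5003, 6306 and 9574 in NFFSE and 23092, 28288 and 28316 in NFFS. Its log2 difference was -1.98 (limma adjusted p = 7.6e-05). The summed signal of 12 fibroblast markers was 2689 to 2795 in NFFSE and 6636 to 7805 in NFFS, most of it from Sparc, and that of the other 11 was 514 to 549 in NFFSE and 828 to 1058 in NFFS. Of the 12 markers, 5 were called lower in NFFSE and 0 higher, 5 had a positive difference that did not pass the test, and none was at background on every array, although Col6a1 was at background on all 3 NFFSE arrays. Of 4 measured smooth muscle and Schwann cell markers, 2 were called lower, with sums of 112 to 252 in NFFSE and 1026 to 1190.5 in NFFS. The 3′ signal of the Gapdh control relative to its 5′ signal, a measure of RNA quality, was -0.37 ± 0.0114 on the log2 scale in NFFSE and -0.62 ± 0.0165 in NFFS (SD, n = 3 each). The same measure for the beta-actin control was 0.27 ± 0.0186 in NFFSE and 0.33 ± 0.0593 in NFFS (SD, n = 3 each), with overlapping arrays. The part of these marker and RNA quality differences in the results that follow was not tested.

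Outside Klf15, 1 of the 8 genes was called higher in NFFSE (Dusp1) and 2 were called lower (Nr3c1 and Fkbp5), while the other 5 did not pass the test. Over all genes, 11.0% were called higher and 15.2% lower, 26.2% in either direction. Of the 26 probe sets outside Klf15, 1 was called higher and 5 were called lower, and the shares over all probe sets were 7.69% higher and 12.7% lower, 20.4% in either direction. Nothing is read from these shares, because the genes were chosen on this same contrast. The median difference of the 8 genes was 0.04, beside -0.011 over all genes.

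**Figure D1:**
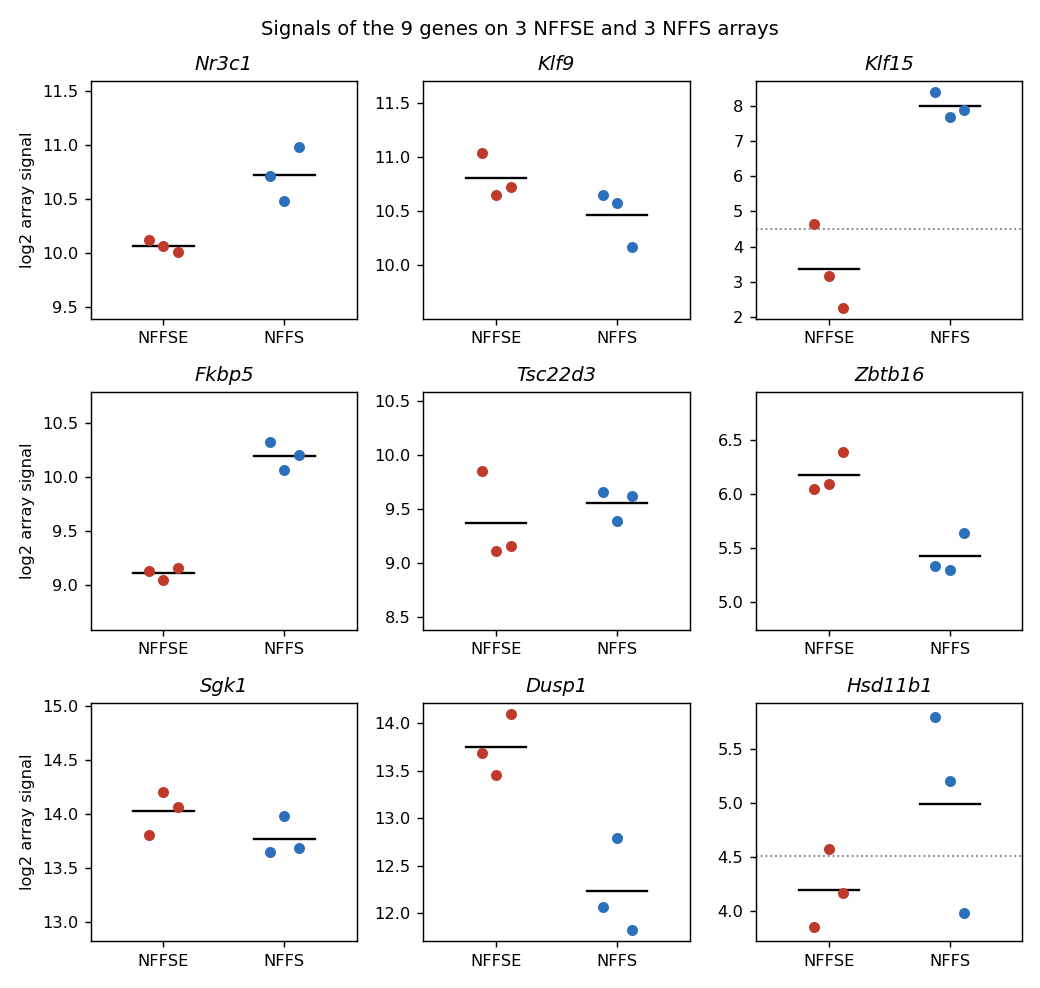
Log2 array signal of the 9 genes, each on 3 NFFSE arrays (red, left) and 3 NFFS arrays (blue, right), ordered by replicate number within a group, with a black line at the mean. Each panel has its own axis, and the dotted line marks the background signal of 22.7. The NFFSE and NFFS points do not overlap for Nr3c1, Fkbp5, Zbtb16 and Dusp1, nor for Klf15, the gene that chose the set. How many of all genes lack overlap was not counted, so nothing is read from this.

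Nr3c1, the receptor itself, had signals of 1116, 1071 and 1030.3 in NFFSE, against 1679, 1435 and 2019 in NFFS (probe set 1460303_at). All NFFSE arrays were thus lower than all NFFS arrays, with the NFFSE arrays close together. The mean was 1072 ± 42.8 in NFFSE and 1711 ± 293 in NFFS (SD, n = 3 each), a 1.58-fold lower signal with EGF (log2 difference -0.66, SE 0.13, limma adjusted p = 0.0046). Between arrays of the same replicate number, which the labels do not state to be paired, the log2 differences were -0.59, -0.42 and -0.97. The array carries 6 probe sets for the gene, and they did not move together. Probe set 1457635_s_at read 563, 417 and 420.1 in NFFSE and 788, 775 and 909.9 in NFFS (log2 difference -0.83, limma adjusted p = 0.003 over all probe sets). Probe set 1421867_at read 722, 795 and 864 in NFFSE and 1010.2, 1041 and 1044 in NFFS (log2 difference -0.38, limma adjusted p = 0.039), a call that was lost without any 1 of the arrays other than NFFSE replicate 3 (adjusted p up to 0.13). These 3 were called lower, while 1421866_at (-0.03) and 1453860_s_at (-0.01) stood near 0 on the log2 scale with overlapping arrays and 1431378_at (0.58) was near background. The call for Nr3c1 did not hold when its probe sets were averaged (log2 difference -0.22, limma adjusted p = 0.34), when the arrays were centred on their medians (-0.46, adjusted p = 0.059) or with the methods' t-test on the same values (adjusted p = 0.058). The direction was lower in NFFSE under all of these.

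Fkbp5 encodes FKBP51, an HSP90 cochaperone that lowers the affinity of the receptor for hormone and is induced by the receptor, which closes a negative feedback loop. Its signals were 559, 529.8 and 569.8 in NFFSE, against 1279, 1069 and 1180.0 in NFFS (probe set 1416125_at). The arrays of the media lay far apart relative to their spread. The mean was 553 ± 20.7 in NFFSE and 1176 ± 105 in NFFS (SD, n = 3 each), and Fkbp5 fell 2.12-fold with EGF (log2 difference -1.09, SE 0.12, limma adjusted p = 1.0e-04). The arrays of the same replicate number gave log2 differences of -1.19, -1.01 and -1.05, the most even of the 3 genes called. A further probe set, 1448231_at, read 172, 91 and 161 in NFFSE and 429.6, 312 and 456 in NFFS, a log2 difference of -1.53 (SE 0.26, limma adjusted p = 0.0021 over all probe sets). The remaining probe set, 1447736_at, was at background on all 6 arrays and gives no difference. Averaging all 3 probe sets, the background one included, turned the sign (0.10, limma adjusted p = 0.9), and averaging only those above background on any array gave -1.31 (adjusted p = 3.5e-04).

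Klf15 and Klf9 encode Krüppel-like zinc finger transcription factors that glucocorticoids induce in many tissues, Klf15 with a known role in amino acid and glucose metabolism and Klf9 with known antiproliferative activity in human keratinocytes. Klf15, the gene that chose the set, had signals of 24.9, 8.96 and 4.81 in NFFSE and 335, 203 and 234 in NFFS (probe set 1448181_at, its single probe set). In NFFSE 2 of the 3 arrays were at background, and the remaining array was just above it. The mean was 12.9 ± 10.6 in NFFSE and 257 ± 69.3 in NFFS (SD, n = 3 each), at least 10.7-fold lower with EGF when the arrays at background were set to 22.7. The differences between arrays of the same replicate number were -3.75, -4.50 and -5.60 on the log2 scale. The log2 difference of -4.62 depends on signals below background, and it was -3.27 with 16 added to each signal.

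Klf9 had signals of 2102, 1607 and 1695 in NFFSE and 1608, 1527 and 1154 in NFFS (probe set 1456341_a_at). The NFFSE and NFFS arrays overlapped by 1 unit of signal. The mean was 1801 ± 264 in NFFSE and 1429.9 ± 242 in NFFS (SD, n = 3 each), with a log2 difference of 0.34 (SE 0.15, limma adjusted p = 0.14). All 7 of its probe sets gave a positive difference, between 0.13 and 0.61, and none passed the test over all probe sets. The largest difference was that of 1422264_s_at, with 148, 136 and 139.8 in NFFSE and 88.9, 97.1 and 91.4 in NFFS (log2 difference 0.61, SE 0.22, limma adjusted p = 0.076). This probe set and 1436952_at (log2 difference 0.57, limma adjusted p = 0.094) were called higher with the arrays centred on their medians and after quantile normalization, and 1436952_at also without NFFS replicate 1. Probe set 1422264_s_at was further called with a floor under low signals, with dim probe sets left out and with the methods' t-test. As a gene, Klf9 was called higher with the arrays centred on their medians (0.54, limma adjusted p = 0.044).

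Tsc22d3 encodes GILZ, a leucine zipper protein through which glucocorticoids inhibit NF-kappaB and AP-1, and it is among the genes most widely used as a readout of receptor activity. Its signals were 924, 552 and 569 in NFFSE and 807, 668 and 786 in NFFS (probe set 1420772_a_at). Replicate 1 in NFFSE was the highest of the 6 arrays, and the other NFFSE arrays were the lowest. The mean was 682 ± 209.8 in NFFSE and 754 ± 75 in NFFS (SD, n = 3 each), with a log2 difference of -0.18 (95% confidence interval -0.62 to 0.26, limma adjusted p = 0.57). The interval includes differences in either direction. Of its 4 probe sets, 0 were called. Probe set 1425281_a_at gave -0.14 and 1425557_x_at gave 0.14, both with overlapping arrays. The mean of all 4 had the opposite sign (0.39, limma adjusted p = 0.44), and the gene stood at 0.02 with the arrays centred on their medians (adjusted p = 0.97). Probe set 1444365_at had a log2 difference of 1.75 (limma adjusted p = 0.25), which rested on the signal of 2.47, below background, on NFFS array 2.

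Zbtb16 encodes PLZF, a BTB zinc finger repressor that is strongly induced by glucocorticoids in many cell types. It was measured at low signals of 66.3, 68.3 and 83.9 in NFFSE and 40.4, 39.3 and 49.7 in NFFS (probe set 1427638_at). Each NFFSE array was above each NFFS array, with log2 differences of 0.72, 0.80 and 0.75 between arrays of the same replicate number. The mean was 72.9 ± 9.61 in NFFSE and 43.1 ± 5.75 in NFFS (SD, n = 3 each). The log2 difference of 0.76 (SE 0.34) did not pass the test (limma adjusted p = 0.14), whereas it did with a floor under the low signals (adjusted p = 0.027), without the intensity trend of the variances (0.036) and with the methods' t-test (0.048). The mean of its probe sets had the opposite sign (-0.84, limma adjusted p = 0.35). Its other probe sets gave negative differences near background, -0.84 for 1439163_at (limma adjusted p = 0.31) and -2.43 for 1419874_x_at (adjusted p = 0.21), and 1419874_x_at was at background on 5 of the 6 arrays.

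Sgk1 encodes the serum- and glucocorticoid-regulated kinase, which phosphorylates FOXO factors and ion channel regulators and also responds to growth factors. Its signals were 14343, 18924 and 17172 in NFFSE and 12860.4, 16177 and 13198 in NFFS (probe set 1416041_at). The arrays overlapped between the media, with differences of 0.16, 0.23 and 0.38 on the log2 scale between arrays of the same replicate number. The mean was 16813 ± 2311 in NFFSE and 14078 ± 1825 in NFFS (SD, n = 3 each), with a log2 difference of 0.25 (SE 0.14, limma adjusted p = 0.22). This value moved with the scaling of the arrays, and it was 0.46 with the arrays centred on their medians (limma adjusted p = 0.029) and -0.01 after quantile normalization (adjusted p = 0.96).

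Dusp1 encodes MKP-1, a phosphatase that switches off MAP kinases and is induced both by glucocorticoids and, as an immediate early gene, by growth factors through ERK. It had signals of 13158, 11228 and 17504 in NFFSE, against 4300.4, 7116 and 3622 in NFFS (probe set 1448830_at). The media did not overlap, and replicate 2 held both the lowest NFFSE and the highest NFFS signal. The mean was 13964 ± 3215 in NFFSE and 5013 ± 1852 in NFFS (SD, n = 3 each), so that Dusp1 rose 2.86-fold with EGF (log2 difference 1.51, SE 0.24, limma adjusted p = 9.9e-04). The log2 differences between arrays of the same replicate number were 1.61, 0.66 and 2.27. With the methods' t-test the adjusted p was 0.063.

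Hsd11b1 encodes 11-beta-hydroxysteroid dehydrogenase type 1, which regenerates active glucocorticoid from its inert form inside cells. It was barely measured, with signals of 14.4, 23.8 and 17.9 in NFFSE and 55.3, 36.7 and 15.7 in NFFS (probe set 1449038_at). In NFFSE 2 arrays and in NFFS 1 array were at background. The log2 difference was -0.79 (SE 0.59, limma adjusted p = 0.38), with a mean of 18.7 ± 4.71 in NFFSE and 35.9 ± 19.8 in NFFS (SD, n = 3 each).

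**Figure D2:**
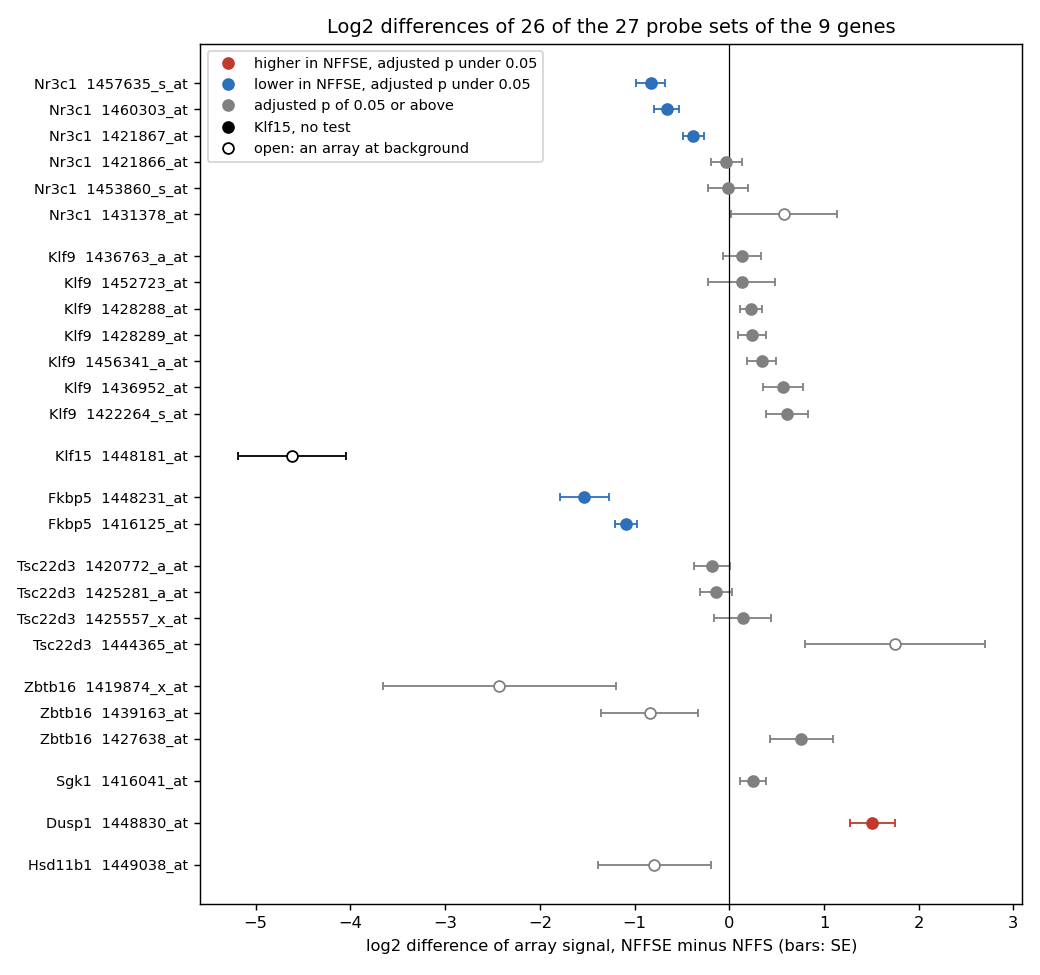
Log2 difference of array signal, NFFSE minus NFFS, for 26 of the 27 probe sets (points) with its SE (bars), where blue is called lower and red called higher in NFFSE, grey not called and black Klf15, which has no test. Open points had an array at background, and the Fkbp5 probe set at background on all 6 arrays is left out. Of the 6 probe sets of Nr3c1, 3 lie left of 0 and are called, and both plotted probe sets of Fkbp5 are called lower.

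To show where the known binding motif of the receptor lies near these genes, the 300 bases around each annotated transcription start (250 before it, 50 after it, RefSeq, GRCm38.p6) were searched for 4 motifs on both strands. These were the full glucocorticoid response element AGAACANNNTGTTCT, its core ACANNNTGT, its half-site AGAACA or TGTTCT, and the cyclic AMP response element TGACGTCA. The core and the half-sites lie inside the full element, so that a full match also counts for these. Of 32851 windows in the table, 3 held the full element (0.00913%), 6.85% the core, 19.0% a half-site and 1.79% the cyclic AMP response element. For the genes described here, 14 windows of 7 genes were searched, and none of Nr3c1 or Zbtb16. The full element was in 1 of the 14 windows, that of the fifth start of Sgk1, at 189 bases before the start. The core was in 2 windows, both of Sgk1, a half-site in 4 windows, of Sgk1 and Tsc22d3, and the cyclic AMP response element in 1 window, that of Dusp1. Klf9, Klf15, Fkbp5 and Hsd11b1 had no match to any of the 4 in these windows. A match describes letters and not a bound site, and no match says only that these letters are absent from the window. The stretches upstream of 4 starts are printed, the 250 bases before the start, 5′ to 3′ on the strand of the gene, with motif matches in capitals: Sgk1 for its full element (chr10:21993640-21993889, plus strand), Dusp1, the gene that rose, for its cyclic AMP response element (chr17:26508473-26508722, minus strand), and, without a match, Fkbp5 (chr17:28486150-28486399, minus strand) and Klf15 (chr6:90462326-90462575, plus strand), the genes with the largest decreases.
Sgk1: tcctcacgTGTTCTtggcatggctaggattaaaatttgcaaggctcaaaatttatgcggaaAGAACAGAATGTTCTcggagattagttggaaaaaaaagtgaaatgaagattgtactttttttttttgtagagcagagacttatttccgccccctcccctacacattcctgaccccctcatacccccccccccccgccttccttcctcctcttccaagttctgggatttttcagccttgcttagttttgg
Dusp1: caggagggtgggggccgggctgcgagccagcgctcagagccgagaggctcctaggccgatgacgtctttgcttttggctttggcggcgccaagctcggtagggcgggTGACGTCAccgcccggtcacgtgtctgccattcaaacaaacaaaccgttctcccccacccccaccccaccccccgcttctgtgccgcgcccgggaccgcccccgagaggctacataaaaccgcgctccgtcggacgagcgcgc
Fkbp5: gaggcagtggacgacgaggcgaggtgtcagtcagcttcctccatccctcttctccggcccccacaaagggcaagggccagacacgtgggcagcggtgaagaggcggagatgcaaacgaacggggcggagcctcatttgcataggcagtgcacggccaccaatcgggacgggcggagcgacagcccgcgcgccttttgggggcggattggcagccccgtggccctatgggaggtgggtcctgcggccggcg
Klf15: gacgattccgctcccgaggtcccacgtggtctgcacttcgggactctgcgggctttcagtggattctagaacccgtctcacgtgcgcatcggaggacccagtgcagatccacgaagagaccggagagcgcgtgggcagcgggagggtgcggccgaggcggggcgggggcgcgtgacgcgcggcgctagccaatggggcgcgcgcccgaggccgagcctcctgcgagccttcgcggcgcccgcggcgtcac

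In the Sgk1 stretch the long run of capitals is the full element, whose gap of 3 bases lies between its half-sites, and the shorter run before it is a separate half-site at 242 bases before the start. Sgk1 has the full element in 1 of its 6 windows, and which of its starts was used in these cells was not measured. As a gene it was not called between the media, except with the arrays centred on their medians (0.46, limma adjusted p = 0.029). Whether the element had a part in the signals of Sgk1 was not tested. The Dusp1 stretch holds the cyclic AMP response element at 143 bases before the start and none of the receptor motifs.

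**Figure D3:**
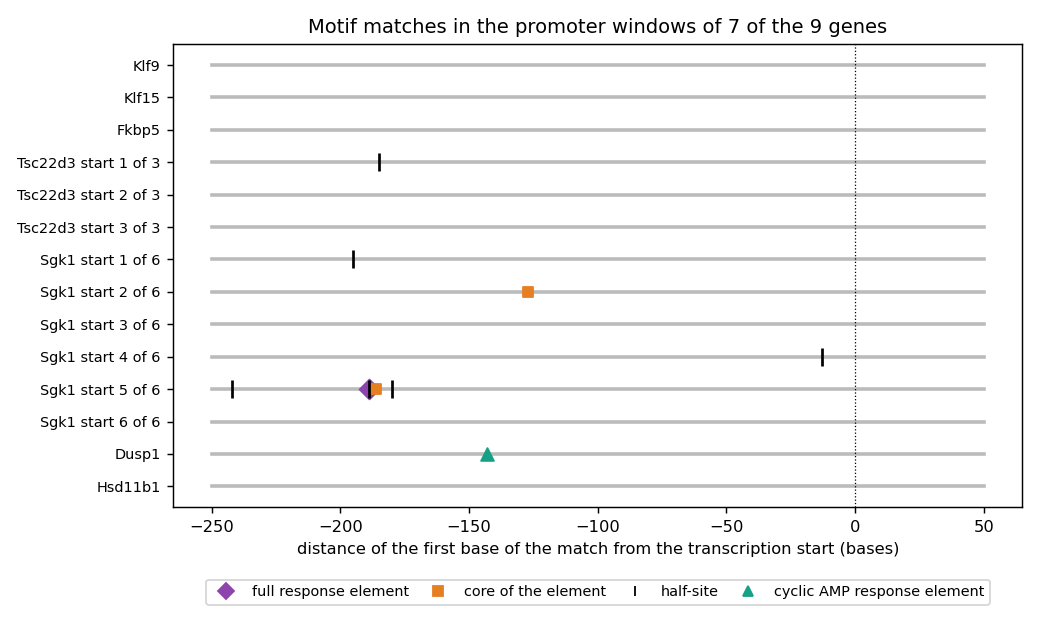
Position of motif matches (distance in bases from the transcription start, at 0) in the 14 windows of 7 of the 9 genes, each window drawn as a grey line of 300 bases. The full response element occurs once, 189 bases before the fifth start of Sgk1, and the cyclic AMP response element once, 143 bases before the start of Dusp1.

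The wider pathway was described through 5 lists of genes, which were chosen with earlier results of these data known. Among all genes measured, 11.0% were called higher in NFFSE and 15.2% lower. Nothing is read from the counts of the lists beside these shares. Of 28 other genes that glucocorticoids are known to induce, 9 were called higher in NFFSE and 6 lower, and 13 did not pass the test. Their median difference was 0.62, beside -0.011 over all genes, and 0.34 with signals below background raised to 22.7. The 4 genes with the smallest p included changes in both directions. Txnip, an inhibitor of thioredoxin and of glucose uptake, read 779, 621 and 768 in NFFSE and 2932, 2194 and 2823 in NFFS (log2 difference -1.87, SE 0.14, limma adjusted p = 1.3e-05). Lcn2, which encodes the iron-siderophore carrier lipocalin-2, read 1592, 1273 and 1929.5 in NFFSE and 467, 387 and 302 in NFFS (log2 difference 2.06, SE 0.19, limma adjusted p = 4.2e-05). Ddit4, which encodes REDD1, an inhibitor of mTORC1, read 20930.2, 22404 and 21698 in NFFSE and 9744, 6073 and 7652 in NFFS (log2 difference 1.50, limma adjusted p = 7.7e-05). Errfi1, a feedback inhibitor of the EGF receptor, read 3051, 3144 and 3524 in NFFSE and 1190.2, 1378 and 764 in NFFS (log2 difference 1.58, limma adjusted p = 1.9e-04). All 4 were thus without overlap between the media. The other genes called, named after their values were seen, were Nfkbia, Mt1, Mt2, Zfp36, Anxa1 and Per1 among those higher and Glul, Foxo1, Fbxo32, Rgs2 and Mertk among those lower. Several of them, among them Errfi1, Zfp36 and Nfkbia, are also known to be induced by growth factors or inflammatory signals. Glul, glutamine synthetase, read 354, 238 and 159 in NFFSE and 1556, 908 and 966 in NFFS. Tat, the classical glucocorticoid target of the liver, was at background on all 6 arrays.

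Of 16 inflammatory genes that glucocorticoids are known to repress, 10 were called higher in NFFSE, 1 was called lower and 5 did not pass the test. The median difference was 2.37, and 2.15 with signals below background raised to 22.7. Cxcl2, a neutrophil chemokine, read 5136, 8282 and 7706 in NFFSE and 84, 124 and 57.8 in NFFS (log2 difference 6.35, SE 0.27, limma adjusted p = 4.9e-07). Its relative Cxcl1 read 3342, 6019 and 5775 in NFFSE and 271, 387 and 224 in NFFS (log2 difference 4.09, SE 0.25, limma adjusted p = 3.2e-06). Icam1, a leukocyte adhesion molecule, rose by 1.42 (limma adjusted p = 1.4e-05) and Ccl2, a monocyte chemokine, by 2.11 (limma adjusted p = 3.4e-05) on the log2 scale, each without overlap. The others called higher, named after their values were seen, were Mmp3, Ptgs2, Mmp13, Mmp9, Tnf and Il1a, of which Mmp9 and Il1a had NFFS arrays at background. The media differed in EGF, and whether the receptor had a part in the differences of this list was not tested. The gene called lower was Ccl5, at background on all NFFSE arrays (at least 1.63-fold, limma adjusted p = 0.018), and this call was lost without NFFS replicate 1, NFFSE replicate 2 or NFFS replicate 2, where 0 genes were called lower. Of 7 leukocyte markers, 0 were called by limma (0 also at an unadjusted p under 0.05), with summed signals of 285 to 351 in NFFSE and 287 to 349 in NFFS. Cd52 and Cd3e were at background on all 6 arrays. Ptprc read 31.5, 29.5 and 21.8 in NFFSE and 10.1, 14.2 and 15.3 in NFFS, without overlap. It was at background on 1 NFFSE and 3 NFFS arrays, and the arrays of the other markers overlapped.

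The receptor's chaperones and cochaperones were measured for 11 of 14 listed genes, of which 5 were called higher in NFFSE, 1 lower and 5 not (median 0.26). Stip1, the HOP protein that hands the receptor from HSP70 to HSP90, read 3762, 3824 and 3437 in NFFSE and 2258, 2357 and 2654 in NFFS (log2 difference 0.60, SE 0.10, limma adjusted p = 0.0018). Ppp5c, a phosphatase of the receptor complex, differed by 0.57 (limma adjusted p = 0.0078). Hspa4, of the HSP110 family, was called higher (0.64, limma adjusted p = 0.0013) and St13, the HSP70-interacting protein HIP, lower (-0.46, limma adjusted p = 0.0042), but both changed sign when the probe sets of each gene were averaged. Fkbp4, which encodes FKBP52, the cochaperone that opposes FKBP51 and raises receptor activity, was named after its values were seen. It read 2215, 2458 and 2115 in NFFSE and 1809, 1865 and 1799.9 in NFFS (log2 difference 0.31, SE 0.10, limma adjusted p = 0.048), a direction opposite to that of Fkbp5. Its call was lost without any 1 of the 6 arrays (adjusted p = 0.051 to 0.2), with the difference between 0.25 and 0.36. Averaging the probe sets of Fkbp4 lowered the difference to 0.14 (limma adjusted p = 0.68). The call was also lost without the intensity trend (limma adjusted p = 0.15) and with the methods' t-test (adjusted p = 0.055).

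Of 13 measured coregulators, 0 were called higher in NFFSE by limma (0 also at an unadjusted p under 0.05), 6 were called lower and 7 did not pass the test (median -0.30). Ncoa2, the p160 coactivator also named GRIP1 or TIF2, read 1255, 997 and 1061 in NFFSE and 2768, 1846 and 1883 in NFFS (log2 difference -0.95, SE 0.17, limma adjusted p = 0.0019). Ncoa1, the related coactivator SRC-1, read 399, 385 and 455 in NFFSE and 805, 553 and 740.2 in NFFS (log2 difference -0.75, limma adjusted p = 0.0075). Ep300, a histone acetyltransferase, differed by -0.68 (limma adjusted p = 0.0064) and Med1, the Mediator subunit that binds nuclear receptors, by -0.48 (limma adjusted p = 0.0084). These calls depended on the processing. With the arrays centred on their medians 1 coregulator was called lower and 1 higher, while 5 were called lower after quantile normalization, 2 with the mean of the probe sets of a gene, and 1 with the methods' t-test or when the variances had no trend. Averaging its probe sets turned Med1 to 0.07 (limma adjusted p = 0.83).

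Of 15 measured genes for other steroid receptors, the stress hormone axis and corticosteroid metabolism, 0 were called by limma (1 lower at an unadjusted p under 0.05), with a median of 0.03. Only 6 of these 15 remained when genes with a mean signal under the 40th percentile in both media were left out. For the dim genes, the lack of a call says little. The 4 with the smallest p were Mc2r, the ACTH receptor (-2.24, limma adjusted p = 0.096), which was at background on 5 of the 6 arrays, Cyp21a1, steroid 21-hydroxylase (0.60, adjusted p = 0.21), Pgr, the progesterone receptor (-1.27, adjusted p = 0.24), and Star, which delivers cholesterol to steroid synthesis (0.49, adjusted p = 0.25). Pgr was at background on 2 of the 3 NFFSE arrays. Nr3c2, the mineralocorticoid receptor, which also binds corticosterone, was at background on all 6 arrays, as was Crh.

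**Figure D4:**
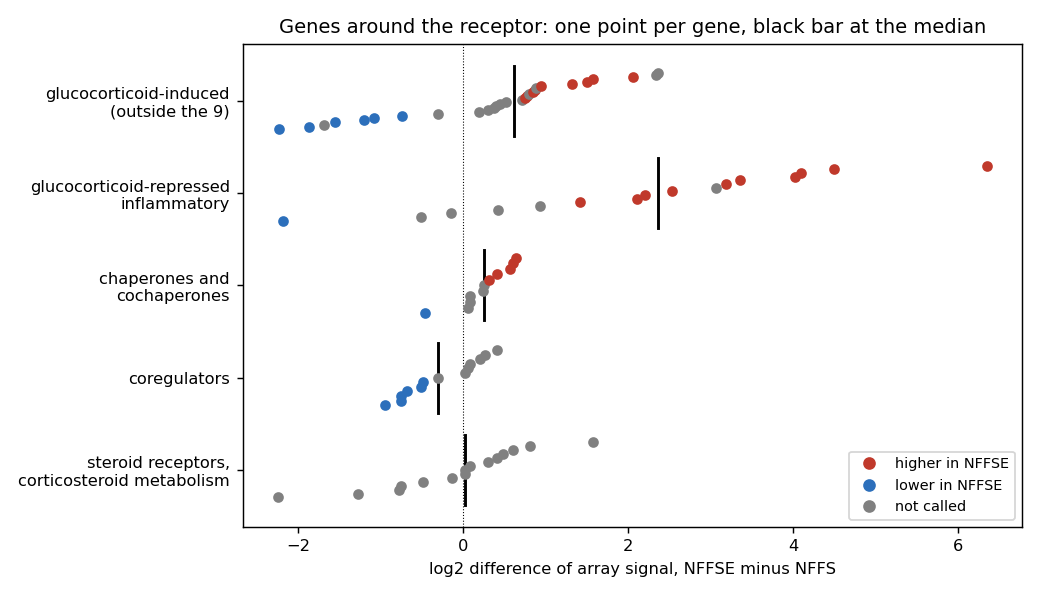
Log2 difference of array signal, NFFSE minus NFFS, of each measured gene in 5 lists around the receptor (points), with the median of the list as a black bar; red points were called higher and blue points lower in NFFSE, and grey points were not called. The medians are 0.62, 2.37, 0.26, -0.30 and 0.03 (top to bottom), and 10 of the 16 repressed inflammatory genes are red.

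The genes whose log2 signals followed Klf15 most closely over the 6 arrays, among genes whose mean signal, in the medium where it was higher, reached the 60th percentile of that medium, were Seh1l (Pearson r = 0.9997), Klhdc10 (0.9994), Mat2b (0.9983), Nde1 (0.9980) and Camta1 (0.9976). These values describe 6 points that fall into 2 media, and they carry no test. Since Klf15 was at background on 2 of the 3 NFFSE arrays, its order within NFFSE is not measured. The last digits of these values, the order of the 5 genes and their choice over other genes rest on it. None of these is therefore measured either. The changes of the 5 genes were much smaller than that of Klf15. Mat2b, for example, the regulatory subunit of methionine adenosyltransferase, read 2408, 1983 and 1789 in NFFSE and 3930.1, 3785 and 3763 in NFFS.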

How the data were processed

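Total RNA of the 6 cultures was hybridized to Mouse Genome 430 2.0 arrays by the authors, 1 array for each culture. The deposited values are intensities on a linear scale, for which the submitters' processing notes name MAS5, with no version. Scanner values and detection calls were not used here. Of 45101 probe sets, 64 controls were left out, 34945 had 1 gene symbol in the platform annotation, 932 had several and 9160 had none.

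limma 3.58.1 (R 4.3.3) was used to fit the log2 intensities with an intensity trend, for genes (the probe set with the highest mean log2 signal) and for probe sets, with Benjamini-Hochberg adjustment over all of them. Scripts were tested on simulated data. Folds are antilogs of log2 differences. Where arrays were at background, "at least" folds set lower signals to 22.7, the highest of 18 TrpnX control values. The members and the lists were chosen with earlier results of these data known. Named are all members, the 4 genes of each list with the smallest p, the 5 genes most correlated with Klf15, and defining markers; the other genes named, among them Glul, Tat, Ccl5, Fkbp4, Nr3c2 and Crh, were chosen after their values were seen. The labels call the arrays biological replicates, and the number of arrays limits the precision. Arrays with the same replicate number were set side by side as possible pairs, because according to the series design the cells were divided between the media and the experiment was repeated, although no label says that the number marks the repeat; deviations from the group means correlated within replicate numbers at 0.0656, 0.0424 and 0.0367 over 18193 genes, which is weak. The alternatives were other probe set choices, scalings, low-signal treatments, variances and tests, the replicate block, and each array left out. Listed genes with no probe set under 1 symbol were not analysed here.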

Additional observations from a re-analysis of the deposited data

How the results depend on the processing

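Fkbp5 and Dusp1 kept their direction under each alternative but 1, the mean of all probe sets for Fkbp5. Without each array in turn, Fkbp5 ranged between -1.15 and -1.02, Dusp1 between 1.31 and 1.8, Nr3c1 between -0.78 and -0.53 and Klf15 between -5.26 and -4.07 on the log2 scale. The replicate block left 1 gene called higher (Dusp1) and 2 lower (Nr3c1 and Fkbp5) and changed no other call of the 9 genes; 11 in place of 10 repressed inflammatory genes were then called higher. With the mean of all probe sets of a gene, the log2 difference was 0.10 for Fkbp5, which includes 1 probe set at background, and it changed sign for Hspa4 (-0.25), St13 (0.14) and Med1 (0.07) and for Zbtb16 (-0.84) and Tsc22d3 (0.39), which were not called; the same values for these 5 genes came from the mean of the probe sets above background on any array, which was chosen after seeing the data. The cause of the sign changes in these 5 genes was not tested. Tsc22d3 also changed sign with centred arrays (0.02) and Sgk1 after quantile normalization (-0.01).

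Of the 8 genes outside Klf15, 3 were called higher with the arrays centred on their medians, and 2 with a floor under low signals or without the intensity trend. With the mean of all probe sets 0 were called lower, and 1 with the mean of those above background, with centred arrays or with the methods' t-test. Of the 26 probe sets, 4 were called higher with centred arrays, 3 after quantile normalization or with the floor and 2 with dim probe sets left out, and 3 were called lower with centred arrays, 2 without the trend and 1 with the t-test. Leaving out 1 array gave 1 to 2 higher (2 without NFFS replicate 1 or NFFS replicate 2). Of the repressed inflammatory genes, 6 were called higher with the t-test, and 0 lower with the floor or with dim genes left out. Leaving out 1 array gave 0 to 1 lower (0 without NFFS replicate 1, NFFSE replicate 2 or NFFS replicate 2). Of the chaperones, 3 were called higher with either mean of probe sets or the t-test and 2 without the trend, and 0 lower with centred arrays. Of the coregulators, 2 were called lower with either mean of probe sets, and 1 with centred arrays, without the trend or with the t-test, while 1 was called higher with centred arrays. Of the steroid receptor and metabolism genes, 0 to 1 were called lower with 1 array left out (1 without replicate 3 of either medium). The cause of these changes was not tested.

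Centring the arrays moved the median of all genes to 0.189, against -0.011 as deposited, and the share of calls that were higher to 62.0%, against 41.9%; quantile normalization gave 0.068 and 48.2%. Signals near 22.7 limit Klf15 in NFFSE, Hsd11b1 and 2 of the 3 probe sets of Zbtb16, for which the size of a change cannot be given. Background signals also occurred in probe sets 1447736_at of Fkbp5, 1431378_at of Nr3c1 and 1444365_at of Tsc22d3. They entered the mean of all probe sets of these genes.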
